A study of Mus musculus with 12 samples.

Results

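The elastic fibre genes described here were 10 genes picked by symbol from the deposited tables, namely *Eln*, *Fbn1*, *Fbn2*, *Mfap4*, *Mfap5*, *Fbln5*, *Ltbp4*, *Emilin1*, *Lox* and *Loxl1*. All 10 were among the 16152 genes with deposited counts and passed the filter on low counts, a level of at least 1 CPM (counts scaled to the size of the library) in at least 3 libraries, which left 15994 genes. RNA was taken from whole lungs of wild-type C57BL/6 mice at embryonic days E15.5 and E18.5 and at postnatal days P5 and P8, with 3 replicates at each of the 4 time-points and no treatment. Replicates of 1 time-point were litter mates, so litter and time-point cannot be told apart, and the p-values of fold changes measure the spread within litters. The permutation tests of ratios pool time-points on each side and treat litter mates as independent libraries. Their p-values can therefore be too small for a statement about litters. Levels are given as deposited CPM, and changes as log2 fold changes with a standard error (SE) and a Benjamini-Hochberg FDR over all 15994 genes from edgeR's quasi-likelihood test.

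Elastic fibres let the lung recoil after each breath. They consist of a core of cross-linked elastin laid onto a scaffold of fibrillin microfibrils, and bridging glycoproteins bring soluble tropoelastin to the scaffold before lysyl oxidases cross-link it. In the mouse, lung elastin is made mainly by smooth muscle of vessels and airways and by myofibroblasts at the tips of the septa that divide the air sacs after birth.

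The libraries held between 41337443 and 53901957 counts. The lung transcription factor gene *Nkx2-1* lay between 136 and 237 CPM and the epithelial gene *Epcam* between 60.9 and 216 CPM in all 12. Marker genes of other tissues were higher in some libraries. The summed level of 5 heart muscle genes was 933 and 1169.9 CPM in E15.5 replicates 1 and 2, and between 51.3 and 313 CPM in the other 10 libraries. The summed level of 5 thymus genes was 132 and 263 CPM in P8 replicates 1 and 2 and at most 15.2 CPM in the other 10 libraries. In P8 replicates 1 and 2 the summed level of 6 cartilage genes was 68.5 and 113 CPM, against 5.33 CPM in P8 replicate 3, 61.9 to 67.8 CPM in the E15.5 libraries and 37.2 to 47.9 CPM in those of E18.5. The summed level of 5 skeletal muscle genes reached 143 CPM in P5 replicate 3, 488 CPM in P8 replicate 1 and 126 CPM in P8 replicate 2, against 6.94 CPM in P8 replicate 3. E15.5 replicate 2 was also lower for long genes than the other 2 E15.5 libraries, with a median log2 difference of -0.12 over 2184 genes with more than 8 kb of exon and of 0.07 over 1250 genes with less than 2 kb. The fold changes and calls of the members, the ratios between members and the wider list of fibre genes were also computed without E15.5 replicates 1 and 2 and P8 replicates 1 and 2, a choice made after the data were seen. That left 1 library at E15.5 and 1 at P8, so edgeR results without the 4 libraries take their spread from the other time-points.

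RefSeq promoter sequences (GRCm38.p6, 250 bases before to 50 after the start) were matched for 4 members, with 1 window for *Fbn1* and *Emilin1*, 2 for *Fbln5* and 3 for *Ltbp4*. The 3 printed here belong to a member that rose steeply after birth (*Fbln5*), one that rose moderately (*Fbn1*) and one that stayed within a narrow range (*Emilin1*). They read 5′ to 3′ on the gene's strand, and capitals mark the GC box, GGGCGG or its reverse complement CCGCCC.
*Fbln5*, chr12:101819070-101819369, minus strand: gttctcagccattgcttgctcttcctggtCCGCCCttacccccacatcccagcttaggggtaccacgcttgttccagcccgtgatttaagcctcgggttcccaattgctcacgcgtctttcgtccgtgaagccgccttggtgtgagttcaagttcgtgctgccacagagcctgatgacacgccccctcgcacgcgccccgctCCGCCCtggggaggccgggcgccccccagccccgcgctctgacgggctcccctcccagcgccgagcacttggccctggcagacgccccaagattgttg
*Fbn1*, chr2:125506389-125506688, minus strand: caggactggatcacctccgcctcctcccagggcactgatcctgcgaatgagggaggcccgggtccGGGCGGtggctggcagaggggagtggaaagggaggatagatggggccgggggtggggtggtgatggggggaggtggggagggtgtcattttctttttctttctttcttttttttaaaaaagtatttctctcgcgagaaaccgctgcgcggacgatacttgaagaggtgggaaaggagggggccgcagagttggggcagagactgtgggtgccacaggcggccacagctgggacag
*Emilin1*, chr5:30913536-30913835, plus strand: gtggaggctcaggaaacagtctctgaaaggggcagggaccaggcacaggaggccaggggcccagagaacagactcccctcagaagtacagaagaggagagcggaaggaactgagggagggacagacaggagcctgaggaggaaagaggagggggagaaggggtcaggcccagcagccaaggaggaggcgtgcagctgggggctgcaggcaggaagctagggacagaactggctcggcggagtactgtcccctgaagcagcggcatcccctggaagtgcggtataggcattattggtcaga
The printed *Fbln5* window held 2 GC boxes and the other *Fbln5* window (chr12:101818435-101818734) held none, the *Fbn1* window held 1 and the *Emilin1* window held none, where 35.7% of 32851 RefSeq promoter windows of the same length held at least 1. The 3 *Ltbp4* windows held 3, 7 and 9 GC boxes. The windows with 7 and 9 (chr7:27333599-27333898 and chr7:27333614-27333913) overlap almost entirely, so their boxes are largely the same sites. Both strands were also searched for the TATA box TATAAA, held by 13.6% of all windows, and for the letters GGAATG, to which TEAD factors bind, held by 14.7%. The AP-1 letters TGAGTCA were in 5.20% and the CArG box of serum response factor in 1.63% of all windows. None of these 4 motifs was in the 7 windows of members.

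*Eln* encodes elastin, the core of the fibre. It was at 651, 839 and 557 CPM in the E15.5 libraries, 1037, 968 and 789.6 CPM in those of E18.5, 2297, 3045 and 2257 CPM in those of P5 and 5424, 6845 and 5872 CPM in those of P8. The groups overlapped only between the 2 embryonic time-points, and every P8 library lay above every P5 library. From E18.5 to P5 *Eln* rose 2.88-fold (log2 fold change 1.53, SE 0.16, edgeR FDR = 2.95e-06), and from P5 to P8 it rose a further 2.36-fold (log2 fold change 1.24, SE 0.16, edgeR FDR = 0.00117). The difference between E15.5 and E18.5 was 0.46 on the log2 scale (SE 0.16) and did not pass the FDR threshold (edgeR FDR = 0.0571), whereas it did in DESeq2 (FDR = 0.00744) and in edgeR without E15.5 replicate 2 (FDR = 0.0192), E18.5 replicate 3 (FDR = 0.0323) or P5 replicate 2 (FDR = 0.0453). Over the whole span to P8 the rise was 9.33-fold (log2 fold change 3.22, SE 0.17, edgeR FDR = 5.84e-09). The share of a library's counts on *Eln* went from 0.0643% to 0.0966% at E15.5 to 0.639% to 0.785% at P8. P8 replicate 3, in which the thymus, cartilage and skeletal muscle sums were lowest among the P8 libraries, held 5872 CPM, between the other two. At each time-point the library with the most *Eln* also had the highest heart muscle sum. The part of heart tissue in the *Eln* values was not tested. Without the 4 libraries named above the rise from P5 to P8 was 1.19 on the log2 scale, in a fit that left 1 library at P8.

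**Figure D1:**
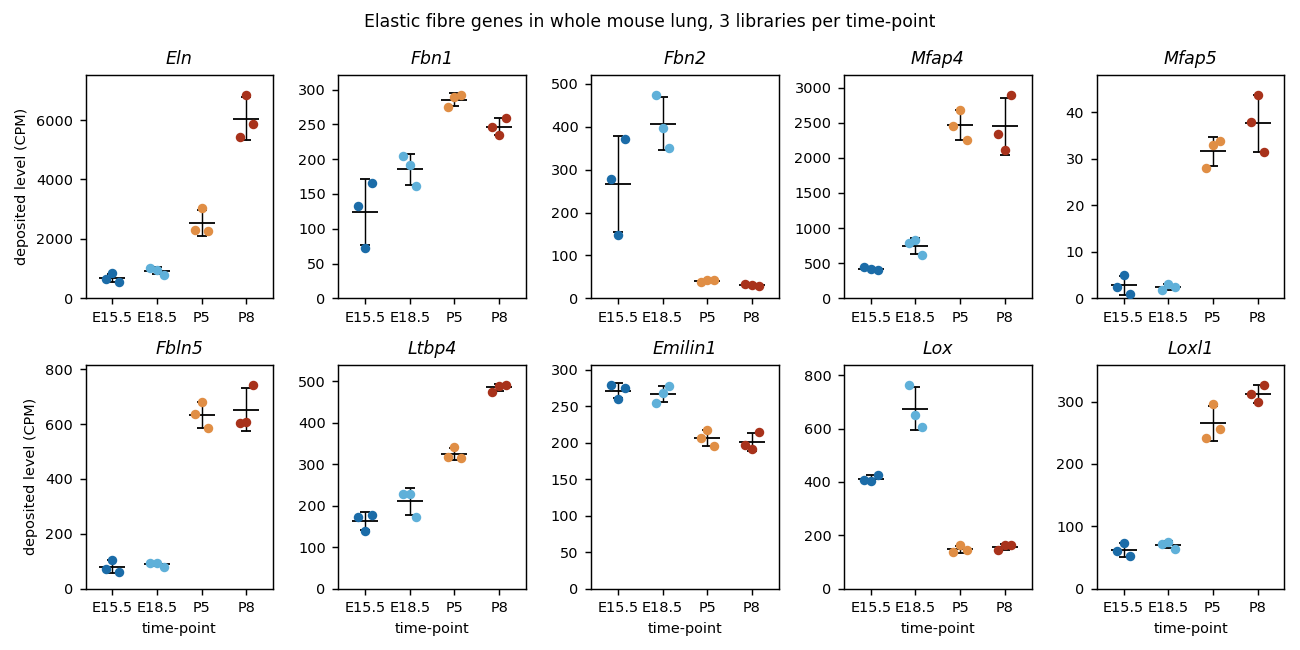
Deposited level in CPM (vertical axes, linear and starting at 0) of the 10 elastic fibre genes at the 4 time-points (horizontal axes). Points are libraries, horizontal marks the mean and error bars 1 SD (n = 3). *Eln* climbs to 5424 to 6845 CPM at P8, *Fbn2* and *Lox* are low in both postnatal groups, and *Emilin1* stays between 191 and 279 CPM.

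Fibrillin 1 and fibrillin 2, the products of *Fbn1* and *Fbn2*, are the large glycoproteins that polymerise into microfibrils. *Fbn2* was at 278, 148 and 372 CPM in the E15.5 libraries, 474, 396 and 351 CPM in those of E18.5, 38.7, 42.8 and 41.7 CPM in those of P5 and 32.4, 31.5 and 29.8 CPM in those of P8. All 6 embryonic libraries lay above all 6 postnatal libraries. *Fbn2* fell 9.34-fold from E18.5 to P5 (log2 fold change -3.22, SE 0.26, edgeR FDR = 2.9e-07), while its differences between E15.5 and E18.5 (log2 fold change 0.62, SE 0.24) and between P5 and P8 (log2 fold change -0.41, SE 0.24) did not pass the threshold (edgeR FDR = 0.0824 and 0.26).

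*Fbn1* was at 133, 72.8 and 166 CPM in the E15.5 libraries, 204, 191 and 161 CPM in those of E18.5, 275, 289 and 292 CPM in those of P5 and 246, 235 and 259 CPM in those of P8. The P5 values were all above the E18.5 values, a rise of 1.63-fold that passed the FDR threshold and not the fold change cutoff of 1 on the log2 scale (log2 fold change 0.71, SE 0.21, edgeR FDR = 0.0102). The P8 libraries lay below the P5 libraries without overlap, by 0.23 on the log2 scale in the mean, and this difference did not pass the threshold (SE 0.21, edgeR FDR = 0.493). From E15.5 to P8 *Fbn1* rose 2.1-fold (log2 fold change 1.07, edgeR FDR = 0.000599), a value that fell under the fold change cutoff without E15.5 replicate 2 (log2 fold change 0.80) or without the 4 libraries rich in heart or thymus genes (0.70). E15.5 replicate 2 was the lowest library at that time-point for both fibrillin genes, whose exons span 12.128 and 13.215 kb. It was also the library with the lower level of long genes, and the part of that in the fibrillin values was not tested.

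The ratio of the fibrillin genes within a library does not depend on the scaling between libraries. The log2 ratio of *Fbn1* to *Fbn2* counts was -1.07, -1.03 and -1.16 in the E15.5 libraries, -1.21, -1.05 and -1.12 in those of E18.5, 2.83, 2.76 and 2.81 in those of P5 and 2.92, 2.90 and 3.12 in those of P8. Within the embryonic libraries it varied little (SD 0.07, n = 6), E15.5 replicate 2 included. The mean moved from -1.11 to 2.89, a 16.0-fold shift toward *Fbn1* (two-sided exact permutation test of 6 against 6 libraries, p = 0.00216, the smallest this test can give). The test took litter mates as independent libraries. Lengths in kilobases of exon are those of all annotated transcripts of a gene merged. Per kilobase of exon, *Fbn2* was 1.95 ± 0.0946 times as abundant as *Fbn1* at E15.5 and 2.01 ± 0.115 times at E18.5, whereas *Fbn1* was 7.57 ± 0.195 times as abundant as *Fbn2* at P5 and 8.63 ± 0.748 times at P8 (SD, n = 3).

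Mfap4 and Mfap5 (MAGP-2) are glycoproteins that bind microfibrils, and Mfap4 also binds tropoelastin. *Mfap4* was at 439.7, 411 and 410.1 CPM in the E15.5 libraries, 787, 829.8 and 620.1 CPM in those of E18.5, 2453, 2682 and 2259 CPM in those of P5 and 2339.6, 2115 and 2897 CPM in those of P8. Its libraries separated at each step up to P5 and overlapped between P5 and P8. *Mfap4* rose 1.78-fold from E15.5 to E18.5 (log2 fold change 0.83, SE 0.13, edgeR FDR = 0.00173), short of the fold change cutoff, and 3.51-fold from E18.5 to P5 (log2 fold change 1.81, SE 0.13, edgeR FDR = 1.1e-07). From P5 to P8 the difference was -0.03 on the log2 scale (SE 0.13, edgeR FDR = 0.911).

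*Mfap5* was the least abundant member before birth. It was at 2.39, 4.99 and 1.0 CPM in the E15.5 libraries, 1.72, 3.06 and 2.49 CPM in those of E18.5, 28.1, 32.8 and 33.9 CPM in those of P5 and 37.8, 43.7 and 31.4 CPM in those of P8. Every postnatal library lay above every embryonic one, and *Mfap5* rose 13.8-fold from E18.5 to P5 (log2 fold change 3.79, SE 0.40, edgeR FDR = 3.28e-06), the largest fold change among the 10 members in that comparison. Its E15.5 values followed the order of the heart muscle sums in the same libraries, which were 933, 1169.9 and 52.1 CPM. The E15.5 values of *Eln*, *Fbln5* and *Loxl1* had the same order. Those of *Fbn1*, *Fbn2*, *Ltbp4* and *Lox* had the reverse order, and those of *Mfap4* and *Emilin1* had neither. Between the embryonic time-points *Mfap5* differed by -0.19 on the log2 scale (SE 0.40, edgeR FDR = 0.768). It turned to 0.50 without E15.5 replicate 2 (edgeR FDR = 0.295) and to 1.27 without the 4 libraries rich in heart or thymus genes (edgeR FDR = 0.041), in a fit that left 1 library at E15.5. From E15.5 to P8 the log2 fold change of 3.83 (SE 0.40, edgeR FDR = 2.09e-06) became 4.52 and 5.03 in the same alternatives.

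The log2 ratio of *Mfap4* to *Mfap5* counts was 7.52, 6.36 and 8.66 in the E15.5 libraries, 8.83, 8.08 and 7.95 in those of E18.5, 6.45, 6.35 and 6.06 in those of P5 and 5.95, 5.60 and 6.53 in those of P8. The embryonic and postnatal libraries overlapped, since E15.5 replicate 2 lay below P5 replicate 1 and P8 replicate 3. The mean went from 7.90 ± 0.89 to 6.16 ± 0.35 (SD, n = 6), a shift toward *Mfap5* of -1.74 on the log2 scale (two-sided exact permutation test with litter mates taken as independent, p = 0.00649). *Mfap4* nevertheless remained the more abundant of the pair in all 12 libraries, by at least 90.4-fold per kilobase of merged exon.

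**Figure D2:**
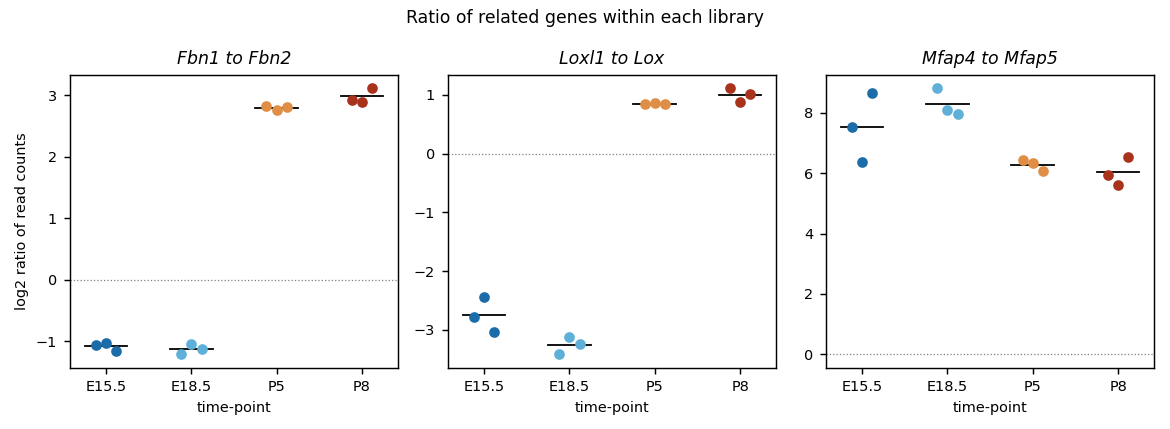
Log2 ratio of read counts within each library (vertical axes) for 3 pairs of related genes at the 4 time-points (horizontal axes). Points are libraries, bars are means of 3 libraries and the dotted line marks equal counts. *Fbn1* to *Fbn2* and *Loxl1* to *Lox* lie below 0 in all 6 embryonic libraries and above 0 in all 6 postnatal libraries, while *Mfap4* to *Mfap5* stays between 5.60 and 8.83.

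Among the assembly and bridging genes, *Fbln5* encodes fibulin 5, which tethers tropoelastin to microfibrils and to integrins. It was at 72.7, 106 and 60.8 CPM in the E15.5 libraries, 92.2, 92.0 and 80.2 CPM in those of E18.5, 637, 681 and 586 CPM in those of P5 and 606, 609 and 743 CPM in those of P8. The libraries fell into an embryonic and a postnatal set with a wide gap between them and overlap within each. *Fbln5* rose 7.65-fold from E18.5 to P5 (log2 fold change 2.93, SE 0.17, edgeR FDR = 2.42e-08). The differences before and after were 0.15 (SE 0.16) and 0.02 (SE 0.16) on the log2 scale and did not pass the threshold (edgeR FDR = 0.538 and 0.942). Its promoter is the first of those printed above.

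*Ltbp4* encodes a latent TGF-beta binding protein that interacts with fibulin 5 during the linear deposition of elastin. It was at 173, 139 and 178 CPM in the E15.5 libraries, 229, 229 and 173 CPM in those of E18.5, 317, 341 and 315 CPM in those of P5 and 476, 490.1 and 491 CPM in those of P8. The 2 embryonic groups overlapped and the later groups did not. *Ltbp4* was the member with a difference past the FDR threshold in all 3 consecutive comparisons, of 0.37 (SE 0.11, edgeR FDR = 0.0347), 0.71 (SE 0.11, edgeR FDR = 0.000104) and 0.57 (SE 0.11, edgeR FDR = 0.00735) on the log2 scale, each short of the fold change cutoff. Over the whole span from E15.5 to P8 it rose 3.13-fold (log2 fold change 1.65, SE 0.12, edgeR FDR = 5.47e-08). Without the 4 libraries rich in heart or thymus genes the steps from E15.5 to E18.5 (log2 fold change 0.24, edgeR FDR = 0.365) and from P5 to P8 (log2 fold change 0.57, edgeR FDR = 0.0661) no longer passed the FDR threshold. The first of these steps also lost it in a fit of the 2 time-points alone (FDR = 0.0792) and without E15.5 replicate 1 (FDR = 0.0581), E15.5 replicate 2 (FDR = 0.115), E18.5 replicate 1 (FDR = 0.132) or E18.5 replicate 2 (FDR = 0.122).

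*Emilin1* encodes a glycoprotein at the interface of elastin and microfibrils. It was at 279, 259.5 and 275 CPM in the E15.5 libraries, 255, 267 and 277 CPM in those of E18.5, 206, 217 and 196 CPM in those of P5 and 196, 191 and 215 CPM in those of P8. Its highest library was 1.46 times its lowest, the narrowest span of the 10 members. The embryonic libraries lay above the postnatal ones, and *Emilin1* fell by 0.28 on the log2 scale from E18.5 to P5 (SE 0.06, edgeR FDR = 0.00148), with no difference past the threshold between E15.5 and E18.5 (log2 fold change -0.02, SE 0.06) or between P5 and P8 (log2 fold change -0.06, SE 0.06).

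*Lox* and *Loxl1* encode lysyl oxidases, copper enzymes that oxidise lysines of tropoelastin and collagen and so start their cross-linking. *Lox* was at 408, 402 and 426 CPM in the E15.5 libraries, 763, 653 and 606 CPM in those of E18.5, 136, 162 and 143 CPM in those of P5 and 144, 162 and 162 CPM in those of P8. It peaked at E18.5, with no overlap between E18.5 and any other time-point. *Lox* rose 1.64-fold from E15.5 to E18.5 (log2 fold change 0.72, SE 0.09, edgeR FDR = 0.000708), short of the fold change cutoff, and then fell 4.32-fold to P5 (log2 fold change -2.11, SE 0.09, edgeR FDR = 2.74e-09). From P5 to P8 the difference was 0.07 on the log2 scale (SE 0.09, edgeR FDR = 0.633).

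*Loxl1* went the other way. It was at 59.7, 73.8 and 52.2 CPM in the E15.5 libraries, 71.6, 74.9 and 63.9 CPM in those of E18.5, 242, 296 and 257 CPM in those of P5 and 312, 299 and 327 CPM in those of P8. All postnatal libraries lay above all embryonic ones, and *Loxl1* rose 4.01-fold from E18.5 to P5 (log2 fold change 2.0, SE 0.12, edgeR FDR = 2.06e-08). The P8 libraries all lay above the P5 libraries, but the difference of 0.22 on the log2 scale did not pass the threshold (SE 0.11, edgeR FDR = 0.181).

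Within libraries, the log2 ratio of *Loxl1* to *Lox* counts was -2.77, -2.45 and -3.03 in the E15.5 libraries, -3.41, -3.12 and -3.25 in those of E18.5, 0.84, 0.87 and 0.84 in those of P5 and 1.12, 0.88 and 1.01 in those of P8. The mean moved from -3.01 ± 0.35 to 0.93 ± 0.11 (SD, n = 6), a 15.3-fold shift toward *Loxl1* (two-sided exact permutation test, p = 0.00216, the smallest this test can give). Adjusted over the 3 ratios tested (Benjamini-Hochberg), the exact permutation p was 0.00325 for the fibrillin and the lysyl oxidase pair and 0.00649 for *Mfap4* and *Mfap5*. All 3 tests took litter mates as independent libraries. Per kilobase of exon *Lox* was 4.71 ± 0.937 times as abundant as *Loxl1* at E15.5 and 6.64 ± 0.677 times at E18.5, and *Loxl1* was 2.61 ± 0.0306 times as abundant as *Lox* at P5 and 2.91 ± 0.238 times at P8 (SD, n = 3).

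As a set, 7 of the 10 members passed both cutoffs from E18.5 to P5, where 26.8% of all genes tested did. *Eln*, *Mfap4*, *Mfap5*, *Fbln5* and *Loxl1* rose (17.5% of all genes rose) and *Fbn2* and *Lox* fell (9.34% of all genes fell). On the FDR alone all 10 members differed, as did 71.1% of all genes, so the FDR alone does not set the members apart. The median of the members' absolute log2 fold changes was 1.91 against 0.55 over all genes, and the median of the signed values was 1.12 against 0.0. These counts describe genes that were chosen together and are not a test of the set.

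The steps on either side were smaller. From E15.5 to E18.5 no member passed both cutoffs in edgeR or in DESeq2, where 3.04% of all genes did in edgeR, and 6 members had an unadjusted p under 0.05, as did 36% of all genes. Past the FDR threshold were *Mfap4*, *Ltbp4* and *Lox*, all upward, beside 21.5% of all genes. From P5 to P8, *Eln* was the member past both cutoffs, beside 2.96% of all genes, and *Eln* and *Ltbp4* were past the FDR threshold, beside 18%. Over the whole span from E15.5 to P8, 9 of the 10 members passed both cutoffs, 7 upward and 2 downward, against 32.3% of all genes (20.9% upward and 11.5% downward). All 10 passed the FDR threshold, as did 76.3% of all genes. The exception to the fold change cutoff was *Emilin1*, at -0.36 on the log2 scale (SE 0.06, edgeR FDR = 0.000202).

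Without the 4 libraries rich in heart or thymus genes, *Eln* was the called member from P5 to P8 as before, beside 0.588% of all genes, and 8 of the 10 members were called from E15.5 to P8, beside 32.4%. In that span the log2 fold changes were then 3.46 for *Eln*, -3.58 for *Fbn2*, 2.88 for *Mfap4*, 3.67 for *Fbln5*, 2.71 for *Loxl1* and -1.33 for *Lox*. Between E15.5 and E18.5, *Mfap5* passed both cutoffs in this fit, beside 1.17% of all genes. *Eln* (log2 fold change 0.74, edgeR FDR = 0.049), *Mfap4* (0.86, FDR = 0.022), *Fbln5* (0.53, FDR = 0.0384) and *Lox* (0.66, FDR = 0.0313) passed the FDR threshold alone, and with *Mfap5* 5 members were past it, beside 5.36% of all genes.

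**Figure D3:**
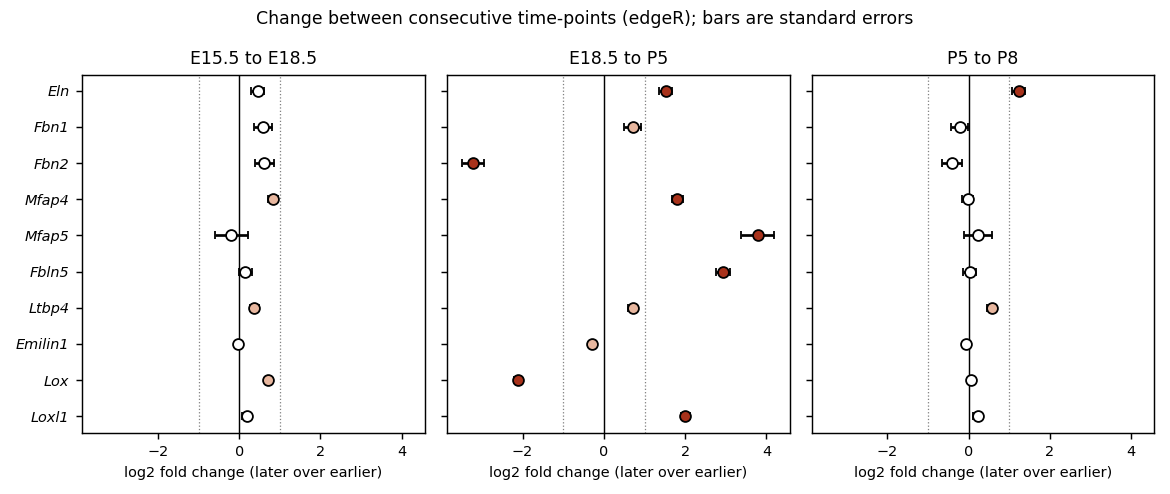
Log2 fold change between consecutive time-points (horizontal axes, later over earlier) of the 10 members, with standard errors from edgeR. Dark points passed both cutoffs, pale points passed the FDR threshold alone, open points passed neither, and dotted lines mark log2 fold changes of -1 and 1. The dark points number 7 from E18.5 to P5 and 1, *Eln*, from P5 to P8.

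Per kilobase of exon, levels can be set against each other between genes only roughly. The merged exons span 8.098 kb over 5 transcripts for *Eln* and 1.922 kb over 4 for *Mfap4*. A gene whose transcripts in the lung are shorter than its merged exons is placed too low, and those lengths were not measured. By this measure *Mfap4* was the highest member at every time-point, from 219 ± 8.71 CPM per kb at E15.5 to 1275 ± 209 CPM per kb at P8 (SD, n = 3). At E15.5 *Lox* (86.3 ± 2.6 CPM per kb) and *Eln* (84.3 ± 17.7 CPM per kb) came next and differed by less than their spread. By P5 *Eln* was at 313 ± 54.8 CPM per kb, followed by *Fbln5* at 91.8 ± 6.93 and *Loxl1* at 80.4 ± 8.48 CPM per kb, while *Lox* had dropped to seventh place with 30.8 ± 2.88 CPM per kb. *Fbn2* went from sixth place at both embryonic time-points to last at P5 and P8, at 3.11 ± 0.163 and 2.36 ± 0.102 CPM per kb. At P8 *Loxl1* (94.7 ± 4.2 CPM per kb) and *Fbln5* (94.4 ± 11.3 CPM per kb) again differed by less than their spread.

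Taking the sum of the 10 genes per kilobase as the whole, the mean share of *Eln* (SD, n = 3) was 15.9% ± 3.24 in the E15.5 libraries, 14.2% ± 0.445 in those of E18.5, 16.2% ± 1.34 in those of P5 and 31.4% ± 4.7 in those of P8. *Mfap4* took 41.2% ± 1.14 at E15.5 and 66.6% ± 1.2 at P5. Of the 2 cross-linking enzymes, *Lox* held the larger share before birth, at 17.4% ± 1.34 at E18.5. The share of *Lox* fell to 1.6% ± 0.0917 at P5, where *Loxl1* held 4.18% ± 0.246. *Fbn2* went from 3.79% ± 0.313 at E18.5 to 0.162% ± 0.0141 at P5. Within a library these shares sum to a fixed whole, so a rise in one lowers the others. The shares also depend on the merged exon lengths.

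**Figure D4:**
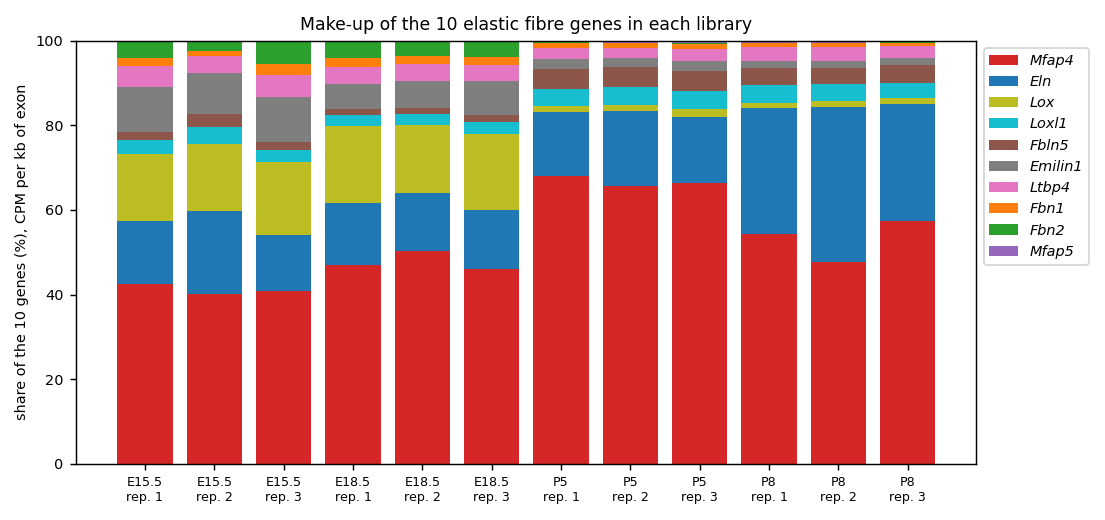
Share of each gene in the summed level of the 10 elastic fibre genes (vertical axis, percent of CPM per kb of exon) in each of the 12 libraries (horizontal axis; rep., replicate). *Mfap4* and *Eln* hold the largest shares after birth, the *Lox* and *Fbn2* segments shrink at P5, and the *Eln* segment is widest in the 3 P8 libraries.

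In whole lung, a change in the number of cells of a type and a change in the RNA per cell cannot be told apart, so levels of marker genes are given beside the members. The summed level of 7 smooth muscle genes lay between 673 and 858 CPM in all 12 libraries. From E18.5 to P5, 2 of the 7 rose past both cutoffs, where 17.5% of all genes rose. They were *Des* (means of 46.9 and 105 CPM) and *Tagln*, which lay near the filter on low counts (0.904 and 1.97 CPM). *Acta2*, smooth muscle actin and the largest part of the sum (mean 513 CPM at E18.5), differed by -0.08 on the log2 scale in that comparison (SE 0.09, edgeR FDR = 0.417). For alveolar myofibroblasts the sum of 6 genes went from 611 to 679 CPM at E18.5 to 1204 to 1451 CPM at P5, and 3 of the 6 rose past both cutoffs. *Aspn* was among these (log2 fold change 2.75, SE 0.15), whereas *Pdgfra* differed by -0.19 (SE 0.09, edgeR FDR = 0.0812). For matrix fibroblasts, 3 of 6 genes rose and the sum went from 575 to 709.5 CPM to 1546 to 1591 CPM. For adventitial fibroblasts 4 of 6 rose and 2 fell, and the sum went from 258 to 282 CPM to 695 to 760.2 CPM. Most of the sum at P5 was *Dpt*, whose mean went from 7.61 to 498 CPM. The 2 that fell were *Dcn* (means of 81.5 and 29.6 CPM) and *Col14a1* (133 and 44.8 CPM). These sums therefore follow single genes and are not a measure of the cell types. From P5 to P8, when *Eln* rose 2.36-fold, the medians of the smooth muscle, alveolar myofibroblast and matrix fibroblast genes were 0.04, -0.34 and -0.15 on the log2 scale. Lower past the FDR threshold were 3 of the alveolar myofibroblast and 2 of the matrix fibroblast genes, where 18% of all genes passed it in either direction. In that comparison 3 of 6 adventitial and 4 of 4 mesothelial genes rose past both cutoffs, beside 2.96% of all genes called in either direction. Of these adventitial genes, *Dcn* (100, 129 and 56.5 CPM) and *Pi16* (14.3, 16.8 and 6.89 CPM) were lowest in P8 replicate 3. *Col14a1* (85.4, 99.7 and 90.0 CPM) and the mesothelial sum (442, 450 and 491 CPM) were not. The marker counts are given with all libraries only, those rich in thymus genes included. The part of these cell types in the members' values was not tested.

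Elastic fibre assembly involves many further genes, and 45 of them were taken as a wider list, of which 40 were tested. From E18.5 to P5, 16 of the 40 rose and 4 fell past both cutoffs, beside 26.8% of all genes, and the median of the list was 0.87 on the log2 scale. The 4 that fell were *Emilin3*, *Mmrn1*, *Fbln1* and *Fbln7*. Between E15.5 and E18.5, *Adamtsl3*, *Slpi* and *Mmp12* rose and *Fbln2* fell past both cutoffs, beside 3.04% of all genes. *Slpi* and *Mmp12* were under 1 CPM at both time-points. *Slpi* had means of 0.238 and 0.706 CPM, and the *Mmp12* call rested on 0, 3 and 7 reads at E18.5 against 0 at E15.5 (SE 1.51). Between P5 and P8 *Mmp9* rose past them, beside 2.96% of all genes. *Fbln2* was at 57.3, 69.0 and 28.1 CPM in the E15.5 libraries, highest in the 2 rich in heart genes, and *Mmp9* at 37.6, 15.4 and 8.27 CPM in the P8 libraries, highest in the 2 rich in thymus genes. With these 4 libraries left out, *Fbln2* went from -1.45 to -0.59 and *Mmp9* from 1.63 to 0.30 on the log2 scale and neither was called. In that fit *Adamtsl3* was the listed gene called between E15.5 and E18.5 and *Efemp1* the one called between P5 and P8 (log2 fold change 1.08, edgeR FDR = 0.014), where its value was 0.88 with all libraries. Over the whole span, with all libraries, 19 rose and the 4 that fell were again *Emilin3*, *Mmrn1*, *Fbln1* and *Fbln7*, beside 32.3% of all genes. Genes in these counts that are not described further were named after their values were seen.

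Of the relatives of members on the list, 4 had been set down to be named. *Mfap2* encodes MAGP-1, the close relative of Mfap5, and it went from 216 ± 10.7 CPM in the E18.5 libraries to 252 ± 27.2 CPM in the P5 libraries (SD, n = 3), a log2 fold change of 0.30 (SE 0.09, edgeR FDR = 0.0073). *Efemp2* encodes fibulin 4, which like fibulin 5 binds tropoelastin and also recruits lysyl oxidase, and its means were 126 ± 1.7 and 103 ± 8.22 CPM, a log2 fold change of -0.20 (SE 0.06, edgeR FDR = 0.0136). *Loxl2*, another lysyl oxidase gene, went from 98.7 ± 8.65 to 183 ± 20.3 CPM and stopped just short of the fold change cutoff (log2 fold change 0.98, SE 0.09, edgeR FDR = 1.3e-06). *Ltbp2*, whose product binds fibulin 5 and fibrillin 1, rose from 40.4 ± 6.34 to 319 ± 16.6 CPM (log2 fold change 3.07, SE 0.20, edgeR FDR = 4.7e-08), where *Ltbp3* differed by 0.74 and *Ltbp1* by -0.15, these last named after their values were seen. The differences between the LTBP genes were not tested.

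Of the emilin genes, *Emilin3* fell from 34.3 ± 7.01 to 1.5 ± 0.328 CPM between E18.5 and P5 (log2 fold change -4.43, SE 0.25, edgeR FDR = 1.7e-08), where *Emilin1* fell by 0.28. The ADAMTS-like genes *Adamtsl3*, *Adamtsl4* and *Adamtsl5*, whose products belong to a family that binds microfibrils, rose by 2.57 (SE 0.10), 2.26 (SE 0.18) and 2.3 (SE 0.25) on the log2 scale. They stayed at low levels, with 29.9 ± 2.46, 16.3 ± 1.14 and 9.19 ± 0.177 CPM at P5.

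Of the 7 tested genes for enzymes that degrade elastin, 4 rose past both cutoffs from E18.5 to P5, where 17.5% of all genes rose. The other 3, named after their values were seen, were *Ctsl* (log2 fold change 0.89) and *Mmp2* (0.51), which passed the FDR threshold alone, and *Prtn3* (-1.05, edgeR FDR = 0.0831), which did not pass it. *Ctss*, cathepsin S, rose from 12.5 ± 1.22 to 103 ± 22.6 CPM between E18.5 and P5 (log2 fold change 3.13, SE 0.16) and *Ctsk*, cathepsin K, from 1.9 ± 0.0346 to 15.1 ± 2.13 CPM (log2 fold change 3.08, SE 0.37). *Mmp9* rose from 0.372 ± 0.205 to 6.57 ± 0.471 CPM (log2 fold change 4.23, SE 0.58). *Mmp12*, the macrophage elastase, had no read in any E15.5 library, 0, 3 and 7 reads at E18.5 and 123, 56 and 86 reads at P5, with a fitted log2 fold change of 4.62 that depends on the prior count (SE 0.61, edgeR FDR = 5.49e-05). *Slpi*, a secreted inhibitor of leukocyte proteases, rose from 0.706 ± 0.218 to 5.17 ± 0.657 CPM (log2 fold change 2.96, SE 0.33). In the same comparison all 4 haematopoietic marker genes rose past both cutoffs, beside 17.5% of all genes. Their summed level went from 41.0 to 48.5 CPM to 264 to 310.3 CPM, and their part in the levels of the degrading enzymes was not tested.

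**Figure D5:**
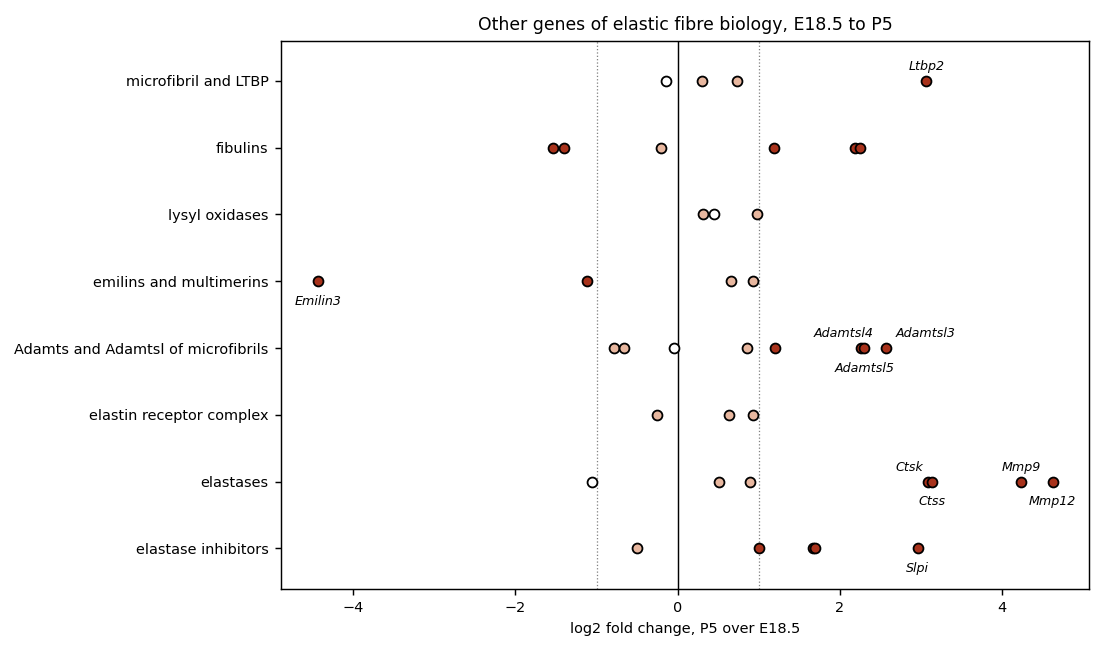
Change between E18.5 and P5 on the log2 scale (horizontal axis) of the 40 tested genes of the wider list, by group (vertical axis). Dark points passed both cutoffs, pale points the FDR threshold alone and open points neither; the 10 labelled genes have the largest changes past both cutoffs, from *Emilin3* at -4.43 to *Mmp12* at 4.62.

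The genes whose pattern over the 12 libraries was most like that of *Eln*, by Pearson's r of log2(CPM + 1), were *Cfap54* (r = 0.995), *Lrrc71*, *Tcea3*, *Maats1* and *Map7* (r = 0.993), all with higher means at each later time-point. Their levels were far below that of *Eln* (mean 682 CPM at E15.5). *Cfap54*, *Lrrc71* and *Maats1* had means of 0.528, 0.337 and 0.293 CPM at E15.5, and *Tcea3* and *Map7* 7.98 and 12.1 CPM. Among the other members the closest to *Eln* was *Ltbp4* (r = 0.968). For *Fbn2* they were *Igf2r* (r = 0.993), *Ttc37*, *Zfp462*, *Gli3* and *Frem2* (r = 0.991), and the closest member was *Lox* (r = 0.971). These values rest on 12 libraries in 4 groups and describe the shape over time-points.

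The annotation (GENCODE M21, GRCm38) places *Eln* on chromosome 5 (134702593 to 134747323, minus strand), *Fbn1* on chromosome 2 (125300594 to 125507993, minus strand) and *Fbln5* on chromosome 12 (101746565 to 101819055, minus strand). *Mfap4* lies on chromosome 11 (61485431 to 61488900, plus strand), *Mfap5* on chromosome 6 (122505845 to 122529290, plus strand) and *Ltbp4* on chromosome 7 (27305136 to 27337692, minus strand). *Emilin1* lies on chromosome 5 (30913402 to 30921277, plus strand), *Loxl1* on chromosome 9 (58287738 to 58313186, minus strand), and *Lox* and *Fbn2* both on chromosome 18. Exons of 5 members overlap a gene on the other strand, and whether the counting used strand is not given in the sources used here. The overlap was 2442 bases for *Fbn1*, 267 for *Eln*, 129 for *Fbn2*, 89 for *Mfap4* and 30 for *Lox*, so reads in those stretches cannot be assigned to a strand.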

How the data were processed

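RNA from 12 whole mouse lungs was sequenced, 3 at each of the 4 time-points. The authors mapped the reads to mm10 with TopHat2 2.1.1 and Bowtie2 2.3.4, quantified genes with HTSeq 0.10.0, kept genes with at least 1 CPM in 3 libraries, and deposited raw counts of 16152 genes. The deposited CPM values of 51825 genes were scaled by the authors to the mapped reads of a library. Symbols were matched for 16136 identifiers, and exon lengths came from GENCODE M21, with the exons of all transcripts of a gene merged. The splicing table was not used here.

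Counts were tested with edgeR 4.0.16 (TMM, quasi-likelihood, 1 fit of 12 libraries, 15994 genes, R 4.3.3), and a gene was called at an absolute log2 fold change over 1 and FDR under 0.05, the study's cutoffs. Count ratios within a library (0.5 added to each count) were compared by exact permutation tests that took litter mates as independent (scipy 1.17.1). Alternatives were library size alone, DESeq2 1.42.0, no filter, FDR alone, only the 2 time-points, a replicate block, each library left out, and for ratios other time-points and 5 added counts.

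All 10 members are named. Of the wider list, the 10 largest changes past both cutoffs from E18.5 to P5 are named, with *Mfap2*, *Efemp2*, *Loxl2* and *Ltbp2*, together with the 5 genes most like *Eln* and *Fbn2*. Markers named singly (*Nkx2-1*, *Epcam*, *Acta2*, *Tagln*, *Des*, *Aspn*, *Pdgfra*, *Npnt*, *Fgf10*, *Dpt*, *Dcn*, *Col14a1*, *Pi16*) were chosen after their values were seen. The members and lists were chosen with earlier results of these data known. Depth limits *Mfap5* before birth, at 1.0 to 4.99 CPM.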

Additional observations from a re-analysis of the deposited data

How the results depend on the processing

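From E18.5 to P5, 7 members were called, and 9 over the span from E15.5 to P8, and both counts were the same under library size alone, DESeq2, no filter, a fit of the 2 time-points alone and the replicate block. With the FDR alone the count went from 0 to 3 between E15.5 and E18.5 and from 1 to 2 between P5 and P8. Without the 4 libraries rich in heart or thymus genes, an alternative added after the data were seen, it went from 0 to 1 between E15.5 and E18.5 (*Mfap5*) and from 9 to 8 between E15.5 and P8 (*Fbn1* lost), with lone E15.5 and P8 libraries assumed to vary like the others. That alternative lowered the calls over all genes from 487 to 187 between E15.5 and E18.5 and from 474 to 94 between P5 and P8. In the wider list it gave 1, 20, 1 and 25 calls in the 4 comparisons, against 4, 20, 1 and 23. The cause was not tested.

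Replicate numbers did not pair the libraries: the 18 correlations between same-numbered libraries ran from -0.30 to 0.27 with 4 over 0.1. The replicate block gave 0, 7, 1 and 9 members in the 4 comparisons, and *Eln* passed the FDR threshold under it between E15.5 and E18.5 (FDR = 0.013).

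For the ratios, 3 against 3 libraries cannot give a p under 0.1. For E18.5 against P5 the shifts were 3.93 for *Fbn1* to *Fbn2*, 4.11 for *Loxl1* to *Lox* and -2.0 for *Mfap4* to *Mfap5* (exact permutation p = 0.1 each), and for E15.5 against P8 they were 4.07, 3.75 and -1.49 (exact permutation p = 0.1, 0.1 and 0.2). The shifts were 4.02, 4.09 and -2.03 without the 4 libraries (4 against 4, exact permutation p = 0.0286 each, the smallest possible).

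Between E15.5 and E18.5, *Fbn1* (log2 fold change 0.87) and *Fbn2* (0.95) passed the FDR threshold without E15.5 replicate 3, and *Fbln5* (0.41) and *Loxl1* (0.33) without E15.5 replicate 2. Between P5 and P8, *Fbn2* passed it without E15.5 replicate 2 (-0.41), and *Fbn1* (-0.22) and *Fbn2* (-0.41) did in a fit of the 2 time-points alone.

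Signs changed only where the main value did not pass the FDR threshold. Between E15.5 and E18.5, leaving out 1 library moved the log2 fold change of *Mfap5* between -0.58 and 0.50, of *Fbln5* between -0.0060 and 0.41 and of *Emilin1* between -0.051 and 0.0030. Between P5 and P8 the same moved *Mfap4* between -0.17 and 0.076 and *Fbln5* between -0.090 and 0.076. Without the 4 libraries, *Mfap5* went to 1.27 in the first of these comparisons, and in the second *Mfap4* went to 0.21, *Mfap5* to -0.032 and *Emilin1* to 0.029.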
